A study of Mus musculus with 9 samples.

Results

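The nuclear genes of oxidative phosphorylation (OXPHOS) were followed in hypothalamus RNA of mice with and without Clic1. Members were the genes of the expression table whose symbol begins with Nduf, Uqcr, Atp5, Cox4i, Cox5, Cox6, Cox7 or Cox8, or is Sdha, Sdhb, Sdhc or Sdhd. The assembly factors named Ndufaf or Sdhaf were left out. This gave 80 of 14351 genes, of which 39 carry the prefix of complex I, 4 of complex II, 8 of complex III, 12 of complex IV and 17 of ATP synthase, also called complex V. The rule rests on names and used no measured value, though it was chosen with earlier results of these data known. The label fits the subunits named, but a prefix does not always give the place. Ndufa4, counted with complex I by its prefix, is known as a subunit of complex IV, and its relative Ndufa4l2 is counted with complex I too. Ndufb1-ps is also counted there, although the annotation lists no protein-coding transcript for it. Cyc1, the cytochrome c1 of complex III, falls outside these prefixes and is counted with related genes instead.

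RNA sequencing covered 9 libraries, 5 from Clic1 KO mice (replicates 2, 4, 6, 8 and 10) and 4 from WT mice (replicates 1, 3, 9 and 11). KO mice carried a whole body deletion of Clic1, a chloride intracellular channel, and the WT mice were littermates on normal chow. The labels give male mice of strain C57b/6J and a treatment of frozen perigonadal fat, whereas the study's methods put the mice on CD-1 and take the RNA from hypothalamus. The age was not given in the sources used here. Replicate 10 bears conflicting names. Its title and treatment label say WT, its description begins with K as those of the KO libraries do, and the study shows it with KO. It was placed with KO, and the main counts are also given without it. No source states that every library came from its own mouse, so p-values measure the spread between these libraries.

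Oxidative phosphorylation takes electrons from NADH at complex I and from succinate at complex II, passes them through complex III and cytochrome c to oxygen at complex IV, and uses the proton gradient built on the way to drive ATP synthase. Most subunits are encoded in the nucleus, made in the cytosol and imported, while all complexes except complex II also need subunits encoded by mitochondrial DNA. Neurons depend on the pathway to pay for ion pumping, and the nuclear genes are known to share regulators such as NRF1 and the ETS factor GABP.

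Values are normalized CPM, in which the authors scaled read counts for depth and by TMM factors, so library sums differ slightly. Estimated depth on the genes of the table was 5.46 to 7.72 M reads in KO replicates 2 to 8, 20.8 M in KO replicate 10 and 7.28 to 10.97 M in WT. Clic1, the deleted gene, averaged 1.33 ± 0.429 CPM over the KO libraries (SD, n = 5) against 4.77 ± 0.868 CPM over WT (SD, n = 4), with no overlap, and KO replicate 10 was at 1.43 CPM. All 10 hypothalamic markers looked for were measured, among them Avp, Oxt, Pomc and Agrp, and 0 of 5 adipose markers (Adipoq, Plin1, Fabp4, Lep, Cidec) were in the table. The sum of the hypothalamic markers ranged from 588 to 630 CPM over the WT libraries and from 663 to 820 CPM over KO, and Avp was the 1 marker of the 10 past the threshold in limma, with a mean of 207 CPM in KO against 111 CPM (adjusted p = 0.0027). Acta1 and Myh4, 2 of 4 skeletal muscle markers, summed to 2.38 to 3.69 CPM per library. KO replicate 10 stood apart. Over all genes it correlated with the rest at a median Spearman rho of 0.974, where every other library had at least 0.99003.

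The most abundant member per transcript length was Atp5b, the catalytic beta subunit of ATP synthase, at 369 ± 30.03 CPM per kb in WT (SD, n = 4). Cox4i1 and Cox8a, subunits of cytochrome c oxidase, and Atp5a1, the alpha subunit of ATP synthase, followed at 250 ± 56.9, 248 ± 26.3 and 225 ± 14.1 CPM per kb, and these 3 did not differ beyond their spread. Within complex I the highest was Ndufa4 at 119 ± 14.0 CPM per kb, within complex II the flavoprotein Sdha at 110 ± 4.09 CPM per kb, and within complex III Uqcrb, which binds ubiquinone, at 115 ± 8.15 CPM per kb. These highest members of complexes I, II and III did not differ beyond their spread, while Atp5b and Cox4i1 lay above them. At the low end stood the alternative isoforms. Ndufa4l2, the hypoxia-linked relative of Ndufa4, was at 1.54 ± 0.375 CPM per kb and Cox6b2, the testis isoform of Cox6b1, at 3.45 ± 1.49 CPM per kb. Cox6b1 itself was at 163 ± 20.2 CPM per kb. The lowest of ATP synthase was Atp5k, the e subunit of its membrane part, at 8.82 ± 3.01 CPM per kb, and those of complexes II and III were the membrane anchor Sdhc at 13.1 ± 1.51 and the Rieske iron-sulfur protein Uqcrfs1 at 38.7 ± 5.18 CPM per kb. The tissue-restricted isoforms Cox4i2, Cox6a2, Cox7a1, Cox7b2, Cox8b and Cox8c were not among the genes of the table, which the authors had filtered on low values, nor were the 13 subunits encoded by mitochondrial DNA. The 3 genes for the membrane ring subunit c of ATP synthase, which encode the same mature protein, had similar levels per length in WT: Atp5g1 at 90.1 ± 12.8, Atp5g2 at 84.5 ± 7.88 and Atp5g3 at 103 ± 10 CPM per kb.

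Does loss of Clic1 go with another level of these genes? In the comparison of KO with WT, 0 of 80 members passed an adjusted p of 0.05 in limma, where 41 of 14351 genes (0.286%) did. The lowest adjusted p of a member was 0.559, for Cox6a1. At an unadjusted p under 0.05 limma gave 6 members, against 6.5% of all genes. Of these 6, Cox6a1 and Atp5k were higher in KO (2 members, background 3.44%), and Ndufb1-ps, Ndufa4, Cox7b and Cox7c were lower (4 members, background 3.07%). The median log2 fold change of KO against WT was -0.0017 over the 80 members, with 40 above 0, and 0.0009 over all genes, with 50.4% above 0. Medians by complex were -0.006 for complex I, -0.003 for complex II, -0.026 for complex III, -0.013 for complex IV and 0.002 for ATP synthase. Because this is whole tissue, fewer cells of a type and less RNA per cell cannot be told apart.

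**Figure D1:**
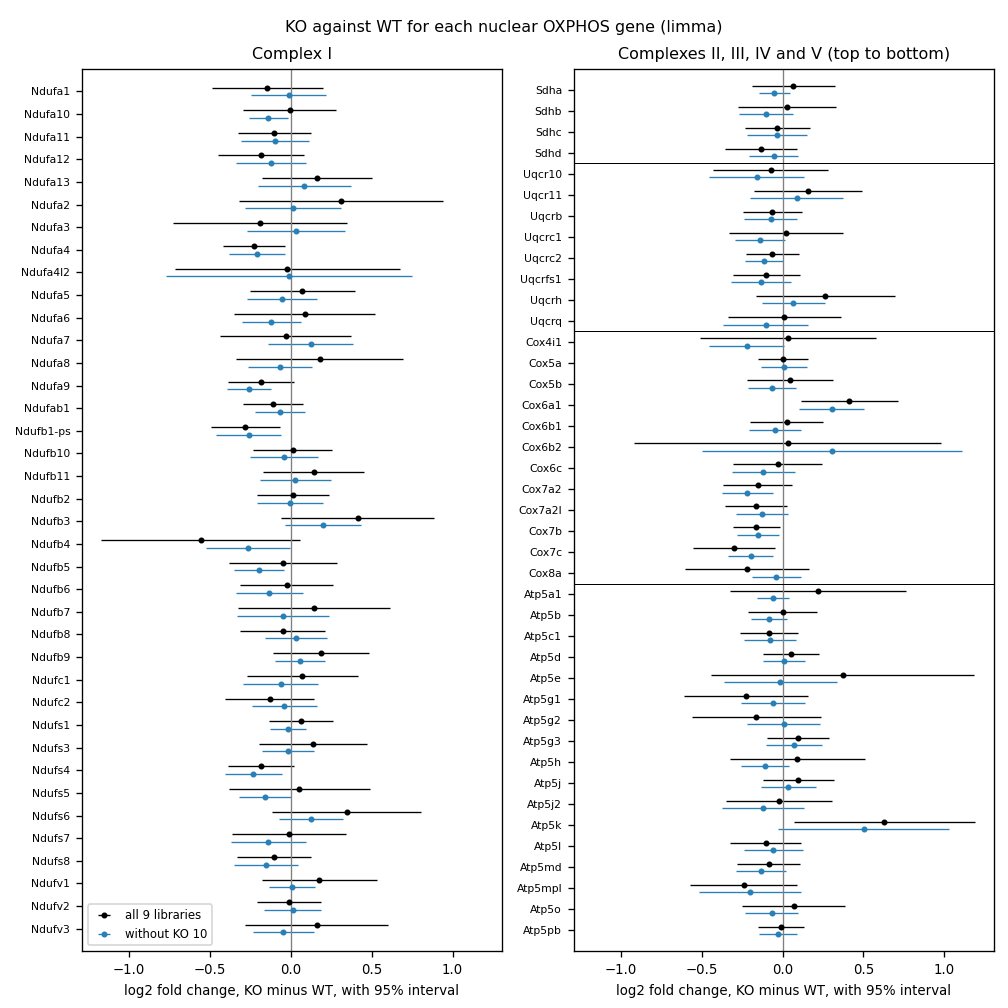
Log2 fold change of KO minus WT (x axis) with its 95% interval for the members reported singly, in black with all 9 libraries and in blue without KO replicate 10. The points lie on both sides of 0, between -0.56 for Ndufb4 and 0.63 for Atp5k, and most blue intervals are the narrower.

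The precision set how small a difference could be seen. The 95% interval of the log2 fold change had a median half-width of 0.30, and for 62 of 80 members it lay within 1.5-fold in either direction. Without KO replicate 10 the median half-width was 0.18 and 77 of 80 intervals lay within 1.5-fold, all except those of Ndufa4l2, Cox6b2 and Atp5k, the 3 members with a mean under 5 CPM. Cox5a, a structural subunit of cytochrome c oxidase, had among the narrowest intervals. It was at 64.0, 58.9, 60.8, 55.0 and 58.5 CPM in KO replicates 2, 4, 6, 8 and 10 and at 55.5, 57.3, 63.1 and 61.3 CPM in WT replicates 1, 3, 9 and 11. The groups overlapped over nearly all of their range, and the log2 fold change was 0.004 with a 95% interval of -0.15 to 0.16.

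Leaving out KO replicate 10 again gave 0 members past the threshold in limma (background 0.606%), but the direction of the whole set shifted. Its median log2 fold change became -0.058, with 21 of 80 members above 0 against 49.3% of all genes. At an unadjusted p under 0.05 there were 12 members, against 10.5% of genes, 1 higher in KO (Cox6a1, background 5.57%) and 11 lower (background 4.96%). The 11 were Ndufa10, Ndufa4, Ndufa9, Ndufb1-ps, Ndufb4, Ndufb5, Ndufs4, Ndufs5, Cox7a2, Cox7b and Cox7c. Leaving out WT replicate 9 turned the shift round, with a median of 0.072 and 55 members above 0 (background 50.5%). In that fit 0 members passed the threshold (background 0.167%), and 3 of 80 had an unadjusted p under 0.05 (background 5.96%), Ndufa13, Uqcr11 and Cox6a1, each higher in KO (background 3.55%). With both libraries left out the median was 0.006, 43 members lay above 0 (background 49.5%) and 10 had an unadjusted p under 0.05 (background 10.8%). With replicate 10 counted as WT the median was -0.12, 18 members lay above 0 (background 49.7%), 0 passed in limma (background 0.0348%) and 5 had an unadjusted p under 0.05 (background 6.65%). The sign of the set's median thus differed with the libraries in the fit, also without KO replicate 4 (0.0072), KO replicate 6 (0.0189) or KO replicate 8 (0.0303). The median over all genes was not taken for these last fits. With all libraries, without KO replicate 10, without WT replicate 9, without both and with replicate 10 as WT, it stayed between -0.0020 and 0.0018.

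Summed levels show the same libraries. The 80 members together took 5802, 5724, 5783, 5566 and 8337 CPM in KO replicates 2, 4, 6, 8 and 10, and 5772, 5643, 6821 and 5840 CPM in WT replicates 1, 3, 9 and 11. KO replicate 10 was the highest of all, WT replicate 9 came next, and the other 7 libraries lay between 5566 and 5840 CPM. The mean was 6242 ± 1174 CPM in KO (SD, n = 5) and 6019 ± 541 CPM in WT (SD, n = 4). Without those 2 libraries it was 5719 ± 107 CPM in KO (n = 4) and 5752 ± 99.6 CPM in WT (n = 3), a difference smaller than either SD. Complex by complex, the means without them were 1667 ± 30.7 and 1663 ± 22.1 CPM for complex I, 446 ± 14.5 and 459 ± 17.8 for complex II, 528 ± 11.5 and 541 ± 8.92 for complex III, 949 ± 29.9 and 955 ± 44.5 for complex IV, and 2128 ± 44.6 and 2133 ± 25.3 for ATP synthase, in KO and WT. Only in complex III was the gap between the means as large as the SD of KO. Leaving out both KO replicate 10 and WT replicate 9 was chosen after seeing the data. They held the 2 highest sums of all members, so the closeness of the rest follows in part from that choice.

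**Figure D2:**
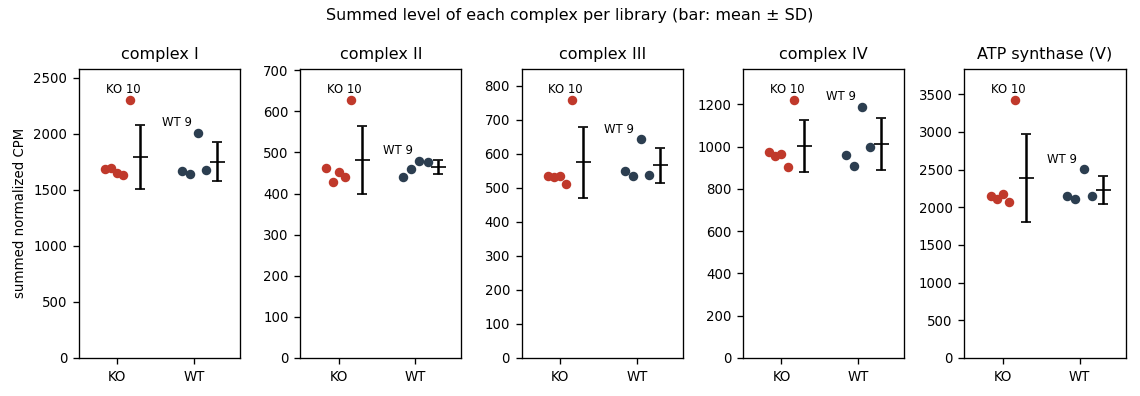
Summed normalized CPM of the members of each complex (y axis, from 0) in each KO and WT library, with the mean and SD beside the points. KO 10 is the highest point in every panel, at 3426 CPM in the ATP synthase panel, and WT 9 is the highest WT point in every panel.

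Cox6a1 and Atp5k were the members with an unadjusted p under 0.05 that were higher in KO. Cox6a1 (ENSMUSG00000041697, chr5:115345642-115348981 on GRCm38) encodes the widely expressed isoform of subunit VIa of cytochrome c oxidase. It was at 83.6, 87.9, 95.1, 71.0 and 122 CPM in KO replicates 2, 4, 6, 8 and 10 and at 68.2, 60.1, 80.4 and 64.6 CPM in WT replicates 1, 3, 9 and 11. KO replicate 10 was the highest, and the groups overlapped only in that WT replicate 9 lay above KO replicate 8. The log2 fold change was 0.41 (SE 0.14, 95% interval 0.11 to 0.71, limma adjusted p = 0.559), and the exact two-sided permutation p was 0.0317. It was 0.30 without KO replicate 10 (limma adjusted p = 0.223), 0.49 without WT replicate 9 (adjusted p = 0.558) and 0.39 without both (adjusted p = 0.0344). Only in the last fit, chosen after seeing the data, was it past the threshold, as 1 of 80 members beside 0.955% of all genes. Cox6a1 was thus the 1 member whose call turned on the libraries included.

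Atp5k (ENSMUSG00000050856, chr5:108433244-108434448 on GRCm38) was at 5.92, 4.74, 4.03, 3.597 and 7.02 CPM in KO and at 2.89, 2.18, 3.20 and 4.82 CPM in WT, replicates in the order above. WT replicate 11 lay above KO replicates 4, 6 and 8, so the groups overlapped. Its log2 fold change was 0.63 with a 95% interval of 0.07 to 1.19 (limma adjusted p = 0.716), the highest of any member, at a level where a library holds few reads. The exact permutation p was 0.0952.

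**Figure D3:**
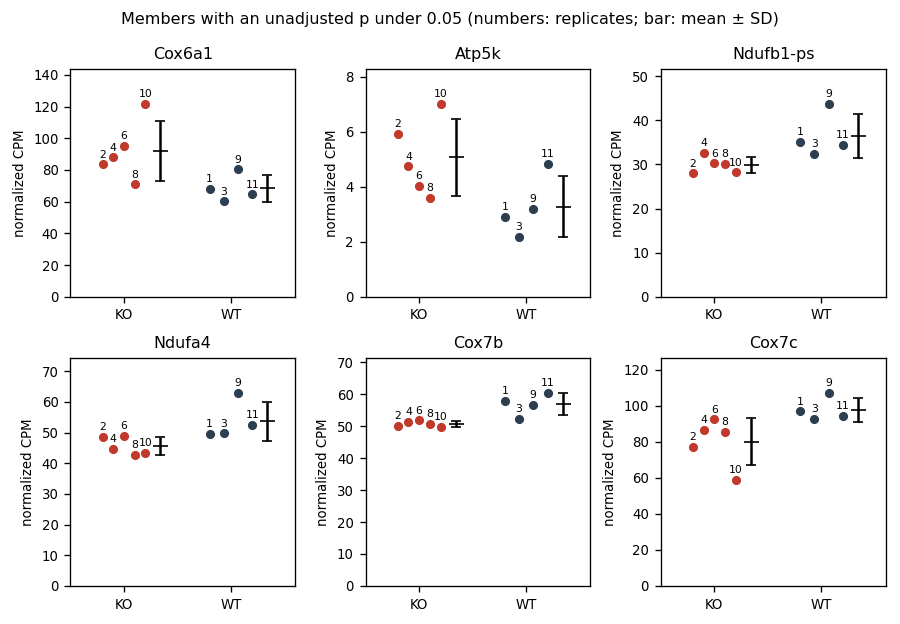
Normalized CPM (y axis, from 0) of the 6 members with an unadjusted p under 0.05 in each KO and WT library, numbered by replicate, with the mean and SD beside the points. Ndufa4, Cox7b and Cox7c show no overlap, by margins that are small beside the spread within WT.

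In Ndufa4, Cox7b and Cox7c each KO library lay below each WT library. Such a separation was seen in 3 of 80 members, all lower in KO, and in 3.41% of all genes, 1.74% lower and 1.67% higher. Ndufa4 (ENSMUSG00000029632, chr6:11900292-11907497 on GRCm38) was at 48.6, 44.7, 48.9, 42.8 and 43.4 CPM in KO and at 49.6, 49.7, 63.0 and 52.6 CPM in WT. Its log2 fold change was -0.23 (SE 0.09, limma adjusted p = 0.688). The highest KO value and the lowest WT value were 48.9 and 49.6 CPM, so the gap was narrow. Cox7b (ENSMUSG00000031231, chrX:106015700-106022450), a small subunit of cytochrome c oxidase, was at 50.2, 51.4, 51.8, 50.7 and 49.7 CPM in KO and at 58.0, 52.2, 56.8 and 60.5 CPM in WT. The KO libraries lay close together, replicate 10 included, and the log2 fold change was -0.16 (SE 0.07, limma adjusted p = 0.716). Cox7c (ENSMUSG00000017778, chr13:86044816-86046904), another small subunit of the same complex, was at 77.1, 86.6, 92.7, 85.6 and 59.1 CPM in KO and at 97.0, 92.8, 107 and 94.3 CPM in WT. KO replicate 10 was the lowest, and KO replicate 6 and WT replicate 3 were nearly level at 92.7 and 92.8 CPM. Its log2 fold change was -0.30 with all libraries (limma adjusted p = 0.695) and -0.20 without KO replicate 10 (adjusted p = 0.264). For each of the 3 the exact permutation p was 0.0159, the smallest that 5 against 4 libraries can give. Any gene with such a separation has this p, so it restates how the 3 were picked. Ndufb1-ps, for which GENCODE lists no protein-coding transcript, was at 27.9, 32.6, 30.2, 30.2 and 28.2 CPM in KO and at 35.2, 32.3, 43.8 and 34.4 CPM in WT. Only KO replicate 4 lay above a WT library, and the log2 fold change was -0.28 (limma adjusted p = 0.622).

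Without KO replicate 10, 8 members showed no overlap, all 8 lower in KO and 0 higher, against 6.06% of genes, 3.19% lower and 2.86% higher. They were the same 3 and the complex I subunits Ndufa10, Ndufa9, Ndufb5 and Ndufs4 with the complex IV subunit Cox7a2. The lowest adjusted p among them in limma was 0.106 for Ndufa9, which helps join the matrix arm of complex I to its membrane arm. Ndufa9 was at 44.8, 48.8, 44.0 and 45.8 CPM in KO replicates 2 to 8 and at 53.4, 51.4, 57.4 and 57.3 CPM in WT, and KO replicate 10 lay above all of them at 59.4 CPM. Its log2 fold change was -0.26 without KO replicate 10 and -0.18 with it. Ndufs4, an accessory subunit whose loss in mice is a model of Leigh syndrome, was at 28.8, 29.5, 25.3 and 27.7 CPM in those KO libraries, 32.8 CPM in KO replicate 10 and 29.6, 31.9, 35.8 and 33.5 CPM in WT. It too overlapped only through KO replicate 10. Without both KO replicate 10 and WT replicate 9 there were 8 such members lower and 6 higher (Ndufb11, Ndufb8, Ndufb9, Ndufv2, Cox6a1 and Atp5j) (background 10.1%, with 5.2% lower and 4.86% higher). The members without overlap thus lay on both sides when neither library was used.

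The stretch before the start of the gene is shown for the 2 higher and the 3 separated lower members, since NRF1 and GABP are the textbook regulators of OXPHOS genes. RefSeq windows of 250 bases before to 50 after each start (GRCm38.p6) matched 67 of 80 members. For Ndufb1-ps the matched RefSeq gene was Ndufb1. The core GCGCATG of the NRF1 site, on either strand, was in 13 of 67 (19.4%) and in 7.47% of 11390 genes of the table with a window, and the ETS core CCGGAAG, on either strand, was in 17 of 67 (25.4%) and in 18.2% of genes. The 13 with the NRF1 letters were Ndufa11, Ndufa6, Ndufa8, Ndufb6, Ndufb8, Sdhb, Uqcr11, Uqcrc1, Cox5b, Cox6a1, Atp5k, Atp5l and Atp5g2. Both motifs were in 6 members, Ndufb6, Sdhb, Uqcr11, Cox6a1, Atp5k and Atp5l. The 2 motifs do not overlap in the stretches printed, while the NRF1 letters of both strands overlap in a palindrome. Below are 175 bases upstream of the RefSeq start, 5′ to 3′ on the strand of the gene, with matches in capitals. Cox6a1 (chr5:115348959-115349133, minus strand) has the NRF1 letters from 162 bases before the start and the ETS core from 16 bases before it. Atp5k (chr5:108434400-108434574, minus strand) has the NRF1 letters from 50 bases before the start, and its ETS core lies after the start. Cox7c (chr13:86046796-86046970, minus strand), Cox7b (chrX:106015525-106015699, plus strand) and Ndufa4 (chr6:11907451-11907625, minus strand) hold neither string in the window.
Cox6a1: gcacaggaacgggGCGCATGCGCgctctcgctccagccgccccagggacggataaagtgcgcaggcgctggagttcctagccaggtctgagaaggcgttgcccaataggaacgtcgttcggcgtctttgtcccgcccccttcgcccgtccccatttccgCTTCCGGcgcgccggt
Atp5k: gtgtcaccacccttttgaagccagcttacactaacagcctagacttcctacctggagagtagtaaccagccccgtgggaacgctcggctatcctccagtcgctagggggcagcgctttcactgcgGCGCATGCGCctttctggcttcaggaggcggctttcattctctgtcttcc
Cox7c: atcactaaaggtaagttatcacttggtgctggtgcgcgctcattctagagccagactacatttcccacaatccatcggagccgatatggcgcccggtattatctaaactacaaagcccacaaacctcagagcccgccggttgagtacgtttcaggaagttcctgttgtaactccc
Cox7b: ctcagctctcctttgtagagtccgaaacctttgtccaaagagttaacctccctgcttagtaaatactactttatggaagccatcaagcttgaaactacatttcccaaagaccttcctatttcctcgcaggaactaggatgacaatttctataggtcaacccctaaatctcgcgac
Ndufa4: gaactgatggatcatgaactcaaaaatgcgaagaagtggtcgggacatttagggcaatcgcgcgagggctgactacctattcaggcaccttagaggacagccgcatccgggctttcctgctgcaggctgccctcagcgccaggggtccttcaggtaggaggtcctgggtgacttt
A match is a run of letters and not a measured binding site, and Cox6a1 and Atp5k were picked for their values, so no test was made.

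The nuclear subunits taken as core were a chosen list, some with redox centres or catalytic sites. For complex IV the list held Cox4i1, Cox5a, Cox5b and Cox6c, and its subunits encoded by mitochondrial DNA were not measured. With all 9 libraries the log2 fold changes of the core list lay between -0.10 for Uqcrfs1 and 0.22 for Atp5a1. Without KO replicate 10 they lay between -0.22 for Cox4i1 and 0.009 for Cox5a. Cox4i1 had 0.03 with all libraries and -0.078 without both KO replicate 10 and WT replicate 9, and Atp5a1 had -0.06 without KO replicate 10, so both signs turned when KO replicate 10 was left out. Ndufs1, which holds iron-sulfur clusters of the electron input module of complex I, was at 120, 125.6, 128, 124 and 164 CPM in KO and at 120, 136, 125 and 122 CPM in WT. Ndufv1, the NADH-binding subunit, was at 74.9, 69.6, 72.3, 63.3 and 125.7 CPM in KO and at 65.1, 68.8, 75.7 and 69.1 CPM in WT. In both, KO replicate 10 was above all others and the other KO libraries spanned the WT range or overlapped it. Sdha of complex II was at 318, 292, 310, 311 and 465 CPM in KO and at 303, 328, 317 and 328 CPM in WT. Uqcrc1, a core protein of complex III, was at 161, 157, 168, 154 and 280 CPM in KO and at 178, 155, 208 and 167 CPM in WT. Here KO replicate 10 was again the highest and WT replicate 9 the second highest. For Atp5b the values were 658, 669, 678, 654 and 900.4 CPM in KO and 681, 665, 792 and 690 CPM in WT, with a log2 fold change of 0.002 over all libraries and -0.085 without KO replicate 10. Sdhd and Sdhc, the membrane anchors of complex II, had log2 fold changes of -0.13 and -0.03 with all libraries and of -0.06 and -0.04 without KO replicate 10. Uqcrh and Uqcr11, small subunits of complex III, had 0.26 and 0.16 with all libraries and 0.07 and 0.09 without KO replicate 10. Uqcrfs1 went from -0.10 to -0.13 without KO replicate 10 and to -0.01 without WT replicate 9. Ndufb4, a membrane arm subunit of complex I, had -0.56 with all libraries and -0.27 without KO replicate 10. Of the genes for subunit c, Atp5g1 had -0.23, Atp5g2 -0.16 and Atp5g3 0.09 with all libraries, and the values without KO replicate 10 were -0.06, 0.006 and 0.07. The small ATP synthase subunit Atp5mpl had -0.24 with all libraries, -0.20 without KO replicate 10 and -0.12 without WT replicate 9. None of these passed the threshold in limma, with adjusted p of 0.788 to 0.997 over all 9 libraries.

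KO replicate 10 held more members well above the other 4 KO libraries than the share of all genes, while its share of members well below them was near that of all genes. Of the 77 members with a mean of at least 5 CPM, 26 were more than 1.5-fold above the mean of the other KO libraries, against 9.16% of genes at that level, and 7 were more than 1.5-fold below it, against 8.07%. More than 2-fold above were 12 members (background 1.64%), and more than 2-fold below were 2 (background 1.42%). The median log2 ratio over the 80 members was 0.36, and over the 12072 genes with at least 5 CPM 0.0008. The highest ratio was that of Atp5e, the epsilon subunit of ATP synthase, at 45.4 CPM. In KO replicates 2 to 8 it lay between 9.23 and 13.8 CPM, so the ratio was 3.80-fold. The accessory subunit Ndufa2 followed, 2.78-fold above, then Atp5a1 2.63-fold, Cox4i1 2.41-fold and Ndufa8, an accessory subunit of complex I, 2.36-fold. Atp5a1 was at 526, 520, 547 and 536 CPM in KO replicates 2 to 8, at 1401 CPM in KO replicate 10 and at 545, 531, 606 and 537 CPM in WT. A single library thus left the range in which the other 8 lay. The lowest ratios were those of Cox6b2 (2.93-fold below, at under 4 CPM in all libraries), Ndufb4 (2.77-fold below), Ndufa3 (2.22-fold below), Cox8a (1.88-fold below) and Atp5g2 (1.81-fold below). Cox8a, a small subunit of complex IV, was at 70.5 CPM in KO replicate 10 and at 119 to 138 CPM in the other KO libraries.

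Within a complex the members did not keep step in KO replicate 10. In ATP synthase Atp5e and Atp5a1 were far above the other KO libraries, Atp5c1, the gamma subunit, was level with them at 0.983 of their mean, and Atp5g1 was 1.79-fold below. Complex IV had 6 members above and 6 below, with Cox4i1 and Cox8a at the ends among the members over 5 CPM. All 8 members counted with complex III were above, by log2 ratios of 0.05 for Uqcrb to 0.99 for Uqcrh. Cyc1 of the same complex is not among these 8. In complex I 26 of 39 were above and 13 below, from -1.46 for Ndufb4 to 1.47 for Ndufa2. The same library held the highest sum of the 4 astrocyte markers (Gfap, Aqp4, Aldh1l1, Slc1a3), at 1742 CPM against 1198 to 1435 CPM in the others, and the lowest sum of the 4 microglia markers, at 122 CPM against 126.1 to 165 CPM. Its sum of the 10 hypothalamic markers was the highest, at 820 CPM against 588 to 792 CPM. The median log2 ratio of these markers to the other KO libraries was -0.297, so the sum and the typical marker went opposite ways. The neuron markers Rbfox3, Snap25, Syt1 and Tubb3 summed to 2169 CPM in it, within the 2076 to 2546 CPM of the others. The part of cell make-up, and of a depth well over that of the others, in these ratios was not tested.

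WT replicate 9 departed in another way, by a small and nearly uniform step upward. Of the 80 members 72 were above the mean of the other 3 WT libraries, against 5829 of 12072 genes with at least 5 CPM, and the median was 1.21-fold. Of the 77 members with at least 5 CPM, 64 had their highest WT value there and 1, Uqcrb, its lowest, against 31.5% and 31.6% of genes at that level. For 58 members this library was above all 7 others when KO replicate 10 was set aside (background 19.8%), and for 0 below all (background 19.1%). Values more than 1.1-fold above that mean were seen in 63 (background 24.5%) and more than 1.1-fold below in 0 (background 20%). The highest ratios were 1.58-fold for Uqcr10 and 1.57-fold for Ndufa3, small subunits of complexes III and I. Ndufa3 was at 21.8, 20.4, 33.6 and 22.2 CPM in WT replicates 1, 3, 9 and 11, and at 27.6, 23.9, 20.5, 27.1 and 11.1 CPM in KO. It was thus high in WT replicate 9 and low in KO replicate 10. Medians were 1.23-fold for complex I, 1.11-fold for complex II, 1.29-fold for complex III, 1.183-fold for complex IV and 1.19-fold for ATP synthase. The neuron marker sum of this library was the lowest, at 2076 CPM against 2164 to 2546 CPM, its microglia marker sum the highest at 165 CPM, and its sum of 4 ependymal markers the highest at 38.7 CPM against 28.6 to 36.9 CPM. Among WT libraries it also had the highest sums of the astrocyte markers (1435 CPM against 1223 to 1390 CPM), the endothelial markers (145 CPM against 132.5 to 141 CPM) and 2 choroid plexus markers (42.4 CPM against 29.1 to 36.4 CPM), and its depth was within the range of the other WT libraries. Their part in the step was not tested. The ratios of the 2 libraries had a Spearman rho of -0.0462 over the 80 members, which share the libraries and are not independent.

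**Figure D4:**
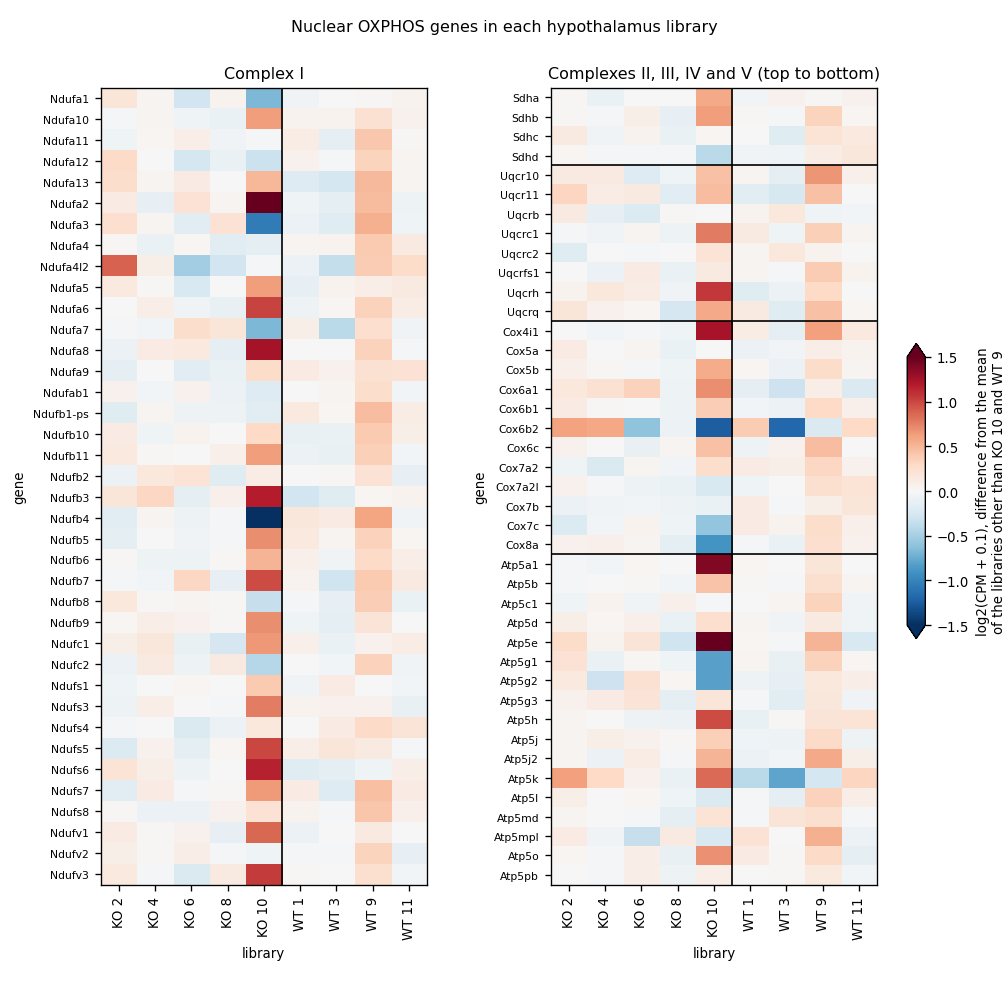
Difference of log2(CPM + 0.1) from the mean of the 7 libraries other than KO 10 and WT 9 (colour, saturated at 1.5 either way) for the members reported singly (rows, by complex) in each library (columns). The KO 10 column holds strong colours of both signs, from Atp5e and Ndufa2 to Ndufb4, and the WT 9 column is pale red almost throughout.

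Cytosolic ribosomal protein genes, whose products make the subunits before import, stood apart in the same 2 libraries. In WT replicate 9, 80 of 81 genes over 5 CPM were above the other WT libraries, with a median log2 ratio of 0.49, and in KO replicate 10, 41 of the 81 were more than 1.5-fold above the other KO libraries and 3 below. For the 78 mitochondrial ribosomal protein genes the median in WT replicate 9 was 0.22, with 67 above, and 16 were more than 1.5-fold above and 4 below in KO replicate 10. The 13 genes of the TCA cycle, which feeds NADH and succinate to the chain, had a median of 0.07 in WT replicate 9 and 0.38 in KO replicate 10, and the 17 of glycolysis 0.15 and 0.39. The 15 regulators of mitochondrial biogenesis over 5 CPM had -0.07 and 0.03, and the 44 assembly factors over 5 CPM 0.10 and 0.12. Cycs and Cyc1, cytochrome c and the cytochrome c1 of complex III, had a median of 0.14 in WT replicate 9 and -0.31 in KO replicate 10, where their sum of 118 CPM was the lowest of all libraries.

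**Figure D5:**
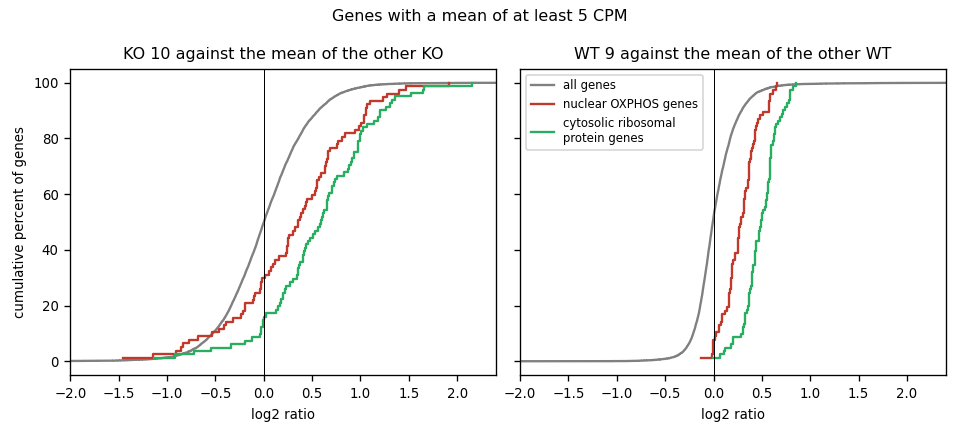
Cumulative percent of genes (y axis) by the log2 ratio of KO 10 to the mean of the other KO libraries (left) and of WT 9 to the mean of the other WT libraries (right), for genes that average 5 CPM or more. In the right panel the OXPHOS curve is steep and shifted, with a median near 0.28, and in the left panel it is broad, reaching from -1.46 to 1.92.

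Genes that work with the subunits were compared by the same fit. Of 49 assembly factors, 13 TCA cycle genes, 18 regulators of mitochondrial biogenesis, 17 glycolysis genes, 78 mitochondrial ribosomal protein genes and the pair Cycs and Cyc1, 0 passed the threshold in either direction in limma, with or without KO replicate 10. An unadjusted p under 0.05 was seen in 3, 0, 0, 1, 5 and 0 of them, beside 6.5% of all genes, and without KO replicate 10 in 7, 2, 0, 4, 6 and 0, beside 10.5%. Median log2 fold changes were -0.058 for the assembly factors, 0.004 for the TCA cycle, 0.012 for the regulators, 0.026 for glycolysis and -0.008 for the mitochondrial ribosomal proteins. Without KO replicate 10 they were -0.053, -0.089, 0.042, -0.070 and -0.046, so the medians of the TCA cycle and of glycolysis turned below 0. The smallest p among assembly factors was that of Cox20, a chaperone of a mitochondrially encoded subunit of complex IV, with 6.59 ± 1.07 CPM in KO and 8.96 ± 0.680 CPM in WT (SD, n = 5 and 4, limma adjusted p = 0.533). Coa3, which acts in the assembly of the same complex, followed with 26.1 ± 0.836 and 31.0 ± 3.76 CPM (adjusted p = 0.684). Cycs, cytochrome c itself, had 79.1 ± 5.07 CPM in KO and 84.5 ± 2.62 CPM in WT (adjusted p = 0.844). Citrate synthase (Cs), often used as a measure of mitochondrial content, had 195 ± 16.3 and 204 ± 6.52 CPM (adjusted p = 0.880). Among 82 cytosolic ribosomal protein genes 1 passed in limma, Rps18, higher in KO with 45.6 ± 9.88 CPM against 11.01 ± 3.36 CPM (adjusted p = 0.000353), and without KO replicate 10 Rps24 passed as well (adjusted p = 0.000346). Rps18 and Rps24 were the only called genes of these lists in the fits with all libraries and without KO replicate 10.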

How the data were processed

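RNA of 9 hypothalamus libraries was sequenced on a NovaSeq. The authors trimmed reads with Trimmomatic 0.38, aligned them to GRCm38.p6 with STAR 2.5.1a, estimated gene counts with RSEM 1.3.0, removed genes with under 1 CPM in too many libraries and applied TMM scaling. The deposited signal is this normalized CPM. A fitted table of the authors' own fold changes and p-values was used for gene symbols only. The values of 1 further column, which belongs to none of the samples, were left unused. Low values up to 2.5 CPM were whole reads within 0.03 reads in only 81.3% to 86.5% of cases, so no count test was run, and depth is approximate.

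Here limma 3.58.1 (R 4.3.3) was applied to log2(CPM + 0.1) with KO or WT as its single term and a mean-variance trend. P-values were adjusted by the Benjamini-Hochberg method over all 14351 genes, and 0.05 was the threshold. Fold changes on this scale understate those of low genes. Each of the 80 members was also compared by exact permutation in scipy 1.17.1. Simulated data with known changes served to test the limma step. GENCODE mouse release 21 gave positions and transcript lengths (the length of the best-ranked protein-coding transcripts). Near-identical copies were sought with blastn 2.17.0. Members, lists and tests were chosen with earlier results of these data known. Members were named if they showed no overlap, had 1 of the 3 smallest p in their complex, were core subunits or isoforms of one another, or had the 5 highest or lowest ratios in KO replicate 10 or the highest or lowest level per length in a complex. Ndufa9, Ndufs4, Uqcr10 and the members listed beside a count were named after their values were seen. A member is counted in the totals but not reported singly here. The alternatives tried were another pseudocount, dropping low genes, rescaling, no trend, sample weights, replicate 10 as WT and leaving out each library.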

Additional observations from a re-analysis of the deposited data

Results flagged for a closer look

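Among 88 groups examined (39 members named by rule and the 5 complex sums, each in KO and in WT), 30 had a library whose gap to the rest exceeded Dixon's 95% critical value, where chance gives about 1 in 20, or 4.4. The groups share libraries, and 10 of the 39 members were named for their high or low ratio in KO replicate 10, so the count is no independent measure of that excess. Leaving those 10 out, 20 of 68 groups had such a library, KO replicate 10 in 15 and WT replicate 9 in 5. The complex sums among the 68 still hold those 10 members, so this count is not free of the choice either. The share of all genes with such a library was not counted. In 22 of the 30 the library was KO replicate 10, 19 times as the highest and 3 times as the lowest, and in 8 it was WT replicate 9, always as the highest.

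For the summed level, KO replicate 10 held 2302 CPM of complex I (1632 to 1698 CPM in the other KO libraries), 628 CPM of complex II (428 to 461), 759 CPM of complex III (511 to 536), 1222 CPM of complex IV (906 to 973) and 3426 CPM of ATP synthase (2076 to 2180). WT replicate 9 held 2008 CPM of complex I (1638 to 1679 CPM in the other WT libraries), 643 CPM of complex III (534 to 551) and 2502 CPM of ATP synthase (2104 to 2148).

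KO replicate 10 was the highest KO library for complex I members Ndufs1 (164 CPM), Ndufv1 (125.7 CPM), Ndufa8 (101 CPM) and Ndufa2 (38.1 CPM). It was also the highest for Sdha (465 CPM) and Sdhb (94.7 CPM) of complex II and for Uqcrh (95.7 CPM) and Uqcrc1 (280 CPM) of complex III. In complex IV these were Cox4i1 (378 CPM), Cox5b (125 CPM) and Cox6c (127 CPM), and in ATP synthase Atp5a1 (1401 CPM), Atp5b (900.4 CPM, against 654 to 678 CPM) and Atp5e (45.4 CPM). It was the lowest for Ndufb4 (6.92 CPM, against 17.7 to 20.6 CPM), Sdhd (28.0 CPM, against 36.3 to 37.7 CPM) and Cox8a (70.5 CPM). WT replicate 9 was the highest WT library for Uqcrfs1 (63.2 CPM, against 47.9 to 50.002 CPM), Sdhb (77.1 CPM), Ndufa3 (33.6 CPM), Ndufa8 (54.0 CPM) and Ndufa2 (18.2 CPM). The labels give no batch or date for either library.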

How the results depend on the processing

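No paired analysis was made, because the sources used here do not say which KO and WT libraries belong together, by litter or otherwise. Members past the threshold numbered 0 under each alternative except without KO 10 and WT 9, added after seeing the data, which gave 1 (Cox6a1). Members with an unadjusted p under 0.05 numbered 6 with all libraries, 11 with sample weights, 3 (without WT replicate 9) to 12 (without KO replicate 10) when each library was left out, and 10 without KO 10 and WT 9. Genes of the related lists past the threshold numbered 1 with all libraries, 3 with sample weights, 0 with replicate 10 as WT, 1 to 2 when each library was left out (2 without KO replicate 10) and 3 without KO 10 and WT 9. For the fit with sample weights the share of all genes was not counted, so its counts of 11 and 3 have no background. The median of all members was -0.12 with replicate 10 as WT. For the 15 members with the 3 smallest p in each complex, 255 values kept direction and side of the threshold, 1 (Cox6a1) came past it and 13 turned sign, all with an adjusted p of at least 0.728. With replicate 10 as WT these were Ndufb4 (0.0784), Sdhd (0.0335), Sdha (-0.16), Uqcrh (-0.15), Uqcr11 (-0.00366) and Atp5g1 (0.12). Sdha was also -0.0263 with sample weights, -0.0515 without KO replicate 10 and -0.0545 without KO 10 and WT 9. With each library left out, Sdhc ran from -0.106 (without WT replicate 3) to 0.0206 (without WT replicate 9) and was 0.00315 without WT replicate 11. Without KO 10 and WT 9, Sdhc was 0.0169 and Atp5g1 0.0317. Over all 39 members named by rule, 22 turned sign with replicate 10 as WT, 14 without KO 10 and WT 9, 13 without KO replicate 10, 10 with sample weights, 2 with equal totals or equal medians, 1 to 8 without another library and 0 under the rest, with an adjusted p of at least 0.497 in each case. The cause was not tested. Depth limits Ndufa4l2, Cox6b2 and Atp5k, which lie under 5 CPM on average.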

Other observations

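Clic1 lies on chromosome 17, and 6 members share that chromosome. The nearest, Ndufa7, a complex I accessory subunit 1.21 Mb away, had 28.0 ± 6.34 CPM in KO (SD, n = 5) and 28.3 ± 5.31 CPM in WT (SD, n = 4). Ndufv3, 3.52 Mb away, had 54.0 ± 21.4 and 46.1 ± 4.20 CPM, where KO replicate 10 alone was at 91.5 CPM. Neither these nor Ndufb10, Ndufa11, Ndufv2 and Cox7a2l passed the threshold in limma, with adjusted p of 0.803 to 0.993.

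Annotated near-identical copies, mostly processed pseudogenes, were found for 28 of 79 members searched (blastn hits of 95% identity or more that covered 30% or more of the smaller transcript), and 0 of these copies were in the table. How the authors' counting divided reads between a member and its copies was not tested, and values of these members are uncertain to that extent. The median size of the log2 ratio of KO replicate 10 to the other KO libraries was 0.488 for members with a copy and 0.532 for members without.

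Across the members, the log2 ratio of WT replicate 9 had a Spearman rho of 0.379 with the GC content of the transcript and -0.205 with its length (79 members), and that of KO replicate 10 had 0.229 and 0.140. The log2 fold change of KO minus WT had 0.346 and 0.0347 with all libraries, and 0.256 and -0.153 without KO replicate 10. These are descriptions over genes that share libraries, and genes are not independent replicates.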
